A study of Mus musculus with 6 samples.

Results

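Serine, proline and the one-carbon units carried by folate are made by short chains of enzymes, and 10 genes of these chains were followed in mouse embryonic fibroblasts that lack or carry Lpar6, a receptor for the lipid signal lysophosphatidic acid. The genes were chosen by name, with earlier results of these data known. They were Phgdh, Psat1 and Psph for serine, Shmt1, Shmt2, Mthfd1, Mthfd2 and Mthfd1l for one-carbon units, and Aldh18a1 and Pycr1 for proline. All probes whose annotated symbol was among them were taken, which gave 14 of 45281 probes and 8 of 19057 named genes. Mthfd1l and Pycr1 are not named by the annotation used here and were not analysed here. There were 3 arrays of Lpar6+/+ cells (wild type, arrays A to C) and 3 arrays of Lpar6-/- cells (knockout, arrays D to F), all from a mixed strain background labelled 129SV and C57BL/6 mix, with RNA on Illumina bead arrays of 1 slide. The submitters' series title names a knock-down, whereas the genotype field reads Lpar6-/- and was followed here. No passage number, age of the embryos or count of embryos is given in the sources used here, and the arrays are not said to come from separate embryos or cultures, so the p-values reflect the spread among these particular arrays, and that spread may be purely technical.

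Serine is made from an intermediate of glycolysis by Phgdh, Psat1 and Psph in turn. The enzymes Shmt1 in the cytosol and Shmt2 in mitochondria then split serine into glycine and a one-carbon unit on folate. The Mthfd enzymes carry that unit between its oxidation states, for use in making purines, thymidylate and methionine. Aldh18a1 and then Pycr1 turn glutamate into proline, an amino acid that fibroblasts need in large amounts for collagen. Many of these genes are known targets of the stress-induced transcription factor ATF4.

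The promoters of the cytosolic and mitochondrial partners and of Aldh18a1 are shown because, in the values that follow, the partners differed in their response and Aldh18a1 held the single E-box among these genes. Each run is the 250 bases before the annotated start in RefSeq (build GRCm38.p6), read 5′ to 3′ along the gene, and capitals mark matches to the motifs searched.
Shmt2 (chr10:127522445-127522694, minus strand): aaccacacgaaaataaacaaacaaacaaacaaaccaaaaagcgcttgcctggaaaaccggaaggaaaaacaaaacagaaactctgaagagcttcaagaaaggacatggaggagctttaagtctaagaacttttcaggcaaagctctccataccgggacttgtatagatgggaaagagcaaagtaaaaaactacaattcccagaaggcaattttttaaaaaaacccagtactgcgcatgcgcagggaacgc
Shmt1 (chr11:60811266-60811515, minus strand): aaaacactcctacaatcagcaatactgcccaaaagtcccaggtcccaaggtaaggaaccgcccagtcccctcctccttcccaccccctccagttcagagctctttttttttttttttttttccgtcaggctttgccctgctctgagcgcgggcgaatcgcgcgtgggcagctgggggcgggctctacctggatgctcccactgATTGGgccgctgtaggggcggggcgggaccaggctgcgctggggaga
Mthfd2 (chr6:83317605-83317854, minus strand): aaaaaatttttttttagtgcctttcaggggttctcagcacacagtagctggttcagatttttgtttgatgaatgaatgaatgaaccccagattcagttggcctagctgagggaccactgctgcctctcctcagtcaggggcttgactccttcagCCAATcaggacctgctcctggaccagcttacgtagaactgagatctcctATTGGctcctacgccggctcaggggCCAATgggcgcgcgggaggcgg
Mthfd1 (chr12:76254982-76255231, plus strand): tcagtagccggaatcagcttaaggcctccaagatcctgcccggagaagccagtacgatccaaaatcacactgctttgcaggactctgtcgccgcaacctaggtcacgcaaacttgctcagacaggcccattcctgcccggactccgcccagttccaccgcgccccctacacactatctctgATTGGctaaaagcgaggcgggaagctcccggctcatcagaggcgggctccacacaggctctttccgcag
Aldh18a1 (chr19:40588464-40588713, minus strand): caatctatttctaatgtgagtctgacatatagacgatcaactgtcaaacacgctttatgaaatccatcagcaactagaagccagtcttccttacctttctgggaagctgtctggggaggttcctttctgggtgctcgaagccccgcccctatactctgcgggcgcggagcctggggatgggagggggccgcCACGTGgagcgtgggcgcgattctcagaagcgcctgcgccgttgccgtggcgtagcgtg

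All 10 genes had a promoter in the RefSeq table, Psat1 with 2 starts, so that 11 windows of 250 bases before to 50 after the start were searched on both strands. The core of the amino acid response element, TGATGNAA, to which ATF4 binds, was found in 1 of the 11 windows, that of Pycr1, and in 3.97% of all 32851 promoters. The E-box CACGTG was found only in Aldh18a1 among these genes, 59 bases before the start, and in 7.15% of all promoters. The CRE core TGACGT was found in Psph, Mthfd1l and Aldh18a1, and in 7.51% of all promoters. The CCAAT box, added to the search after the sequences had been read, was found in 7 of the 10 genes and in 37.4% of all promoters. It occurred 3 times in Mthfd2, 96, 47 and 22 bases before the start, and as often in a window of Psat1. The box was found more than once in Phgdh, Psph and Pycr1 and once each in Shmt1 and Mthfd1. It was not found in the windows of Shmt2, Mthfd1l and Aldh18a1. No match overlapped a match of another motif in these genes. These matches describe letters in a window and do not show that a factor binds there.

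The knockout cells had more transcript of both detected serine synthesis enzymes, of the mitochondrial one-carbon enzymes Shmt2 and Mthfd2 and of Aldh18a1, while the cytosolic partners Shmt1 and Mthfd1 did not pass the test. Mthfd1l, the mitochondrial enzyme that releases formate, was not analysed here. A gene was represented by its brightest probe among those kept, and keeping a probe required a detection p (the chance that a background probe is as bright) below 0.05 on at least 3 arrays. Of the 8 named genes, 7 had a kept probe, and each of the 7 was detected on all 6 arrays. Of these 7, 5 were higher, none was lower and 2 did not pass (limma, Benjamini-Hochberg adjusted p threshold of 0.05 over all kept probes). Over all 11040 genes tested, 20.6% were called higher and 19.1% lower. In the same 5 genes all 3 knockout values lay above all 3 wild-type values, which was so for 27.6% of all genes. The median change of the 7 genes was 1.09 on the log2 scale, and that of all genes 0.027. The changes of the 5 called genes lay between 0.897 and 1.26, and each was larger than the changes of at least 96.7% of all genes.

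**Figure D1:**
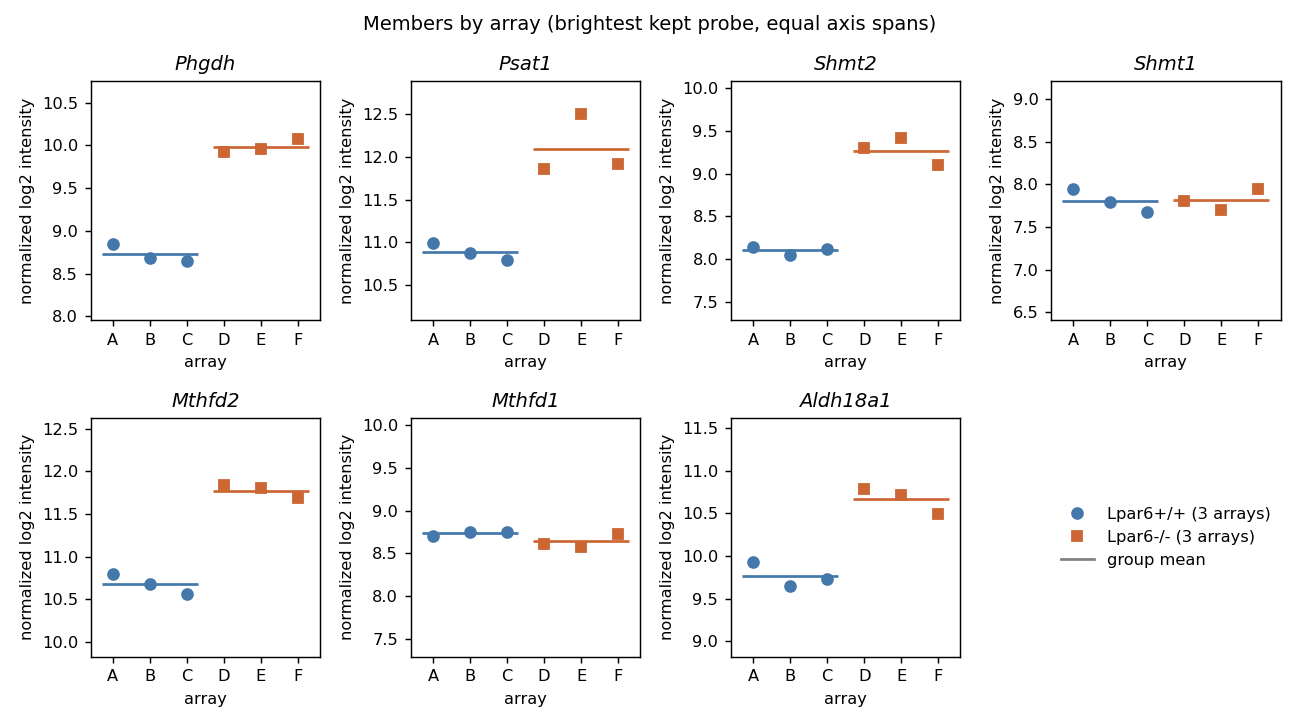
Normalized log2 intensity (y axis) on each array (x axis) for the 7 genes with a kept probe, with circles for the 3 Lpar6+/+ arrays, squares for the 3 Lpar6-/- arrays and a line at each group's mean; every panel spans the same range. In Phgdh, Psat1, Shmt2, Mthfd2 and Aldh18a1 every square lies above every circle, and in Shmt1 and Mthfd1 the groups overlap.

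Phgdh encodes the enzyme that commits carbon from glycolysis to serine. Its probe (ILMN_2790181) gave non-normalized intensities of 598, 494 and 473 for arrays A to C (wild type) and of 956, 1055 and 1102 for arrays D to F (knockout). The knockout intensities were all well above the wild-type ones, and both groups were far from background, where undetected probes had median intensities of 80.2 to 88.7. On the normalized log2 scale the mean rose from 8.73 ± 0.10 to 9.98 ± 0.077 (SD, n = 3 each). The change was 1.26 ± 0.095 (SE), or 2.39-fold with a 95% interval of 2.06 to 2.77 (limma, adjusted p = 9.74e-06).

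Psat1 encodes the transaminase of the second step. Its intensities were 2363, 1942 and 1794 in the wild type and 3556, 6099 and 4037 in the knockout. Knockout array E stood above the other two, so this gene had the widest spread of the group, with a knockout SD of 0.36 against 0.10 in the wild type. The change was 1.21 ± 0.16 on the log2 scale (2.31-fold, 95% interval 1.79 to 2.98, limma adjusted p = 0.000397). It was 0.9956 without array E and stayed past the threshold there (limma, adjusted p = 0.000216).

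Psph encodes the phosphatase that releases serine in the last step. Its 1 probe had intensities between 77.7 and 85.0 on all 6 arrays, and its detection p lay between 0.61 and 0.876. The probe was not well above background in either genotype, so no change can be given for the last step. Serine synthesis was therefore measured at its first and second enzymes only.

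The mitochondrial enzyme Shmt2 was higher in the knockout by both of its kept probes. The brighter probe (ILMN_1224942) had intensities of 398, 348 and 351 in the wild type and of 639.9, 738 and 584 in the knockout, with no overlap. The change was 1.17 ± 0.10 on the log2 scale (2.25-fold, 95% interval 1.91 to 2.64, limma adjusted p = 2.78e-05). The dimmer probe (ILMN_2702703), at 114 to 134 in the wild type and 175 to 190.2 in the knockout, gave 1.25 ± 0.11. That probe lay close to the lowest detected intensities, which were 94.2 to 104 depending on the array.

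Shmt1, the cytosolic enzyme for the same reaction, had intensities of 357, 303 and 278 in the wild type and of 269, 266 and 295 in the knockout. The groups overlapped after normalization. The change was 0.011 ± 0.11 on the log2 scale and did not pass (limma, adjusted p = 0.949). Its 95% interval ran from -0.23 to 0.25, or 0.853-fold to 1.19-fold, so a rise of the size seen in Shmt2 lies outside it. The second kept probe of Shmt1 gave 0.037 ± 0.11 and did not pass either.

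Mthfd2 encodes the mitochondrial dehydrogenase and cyclohydrolase that moves the one-carbon unit on after Shmt2. Its brighter probe (ILMN_2769136) had intensities of 2075, 1721 and 1550.4 in the wild type and of 3478, 3787 and 3379 in the knockout. All knockout values were above all wild-type values, with a change of 1.09 ± 0.098 on the log2 scale (2.13-fold, 95% interval 1.83 to 2.49, limma adjusted p = 3.03e-05). Its second probe (ILMN_2878548), from 351 to 394 in the wild type and 603 to 733 in the knockout, gave 1.14 ± 0.11.

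Mthfd1 encodes the cytosolic protein that holds the equivalent activities and a formate-activating one. It had intensities of 549.9, 512 and 504 in the wild type and of 426, 438 and 468 in the knockout. These are lower in the knockout before normalization, and the groups overlapped after it. The change was -0.096 ± 0.088 on the log2 scale (95% interval -0.29 to 0.10, limma adjusted p = 0.422). Its second kept probe (ILMN_2770528) had a change of 0.17 ± 0.11, of opposite sign, and did not pass (limma, adjusted p = 0.247). The remaining Mthfd1 probe was not detected on any array and was left out.

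Aldh18a1 encodes the enzyme that starts proline synthesis from glutamate. Its kept probe (ILMN_3123473) had intensities of 1181, 882 and 913 in the wild type and of 1698, 1754 and 1463 in the knockout, without overlap. The change was 0.897 ± 0.12 on the log2 scale, the smallest of the 5 rises (1.86-fold, 95% interval 1.56 to 2.23, limma adjusted p = 0.000297). Its other probe was not detected on any array, at 76.8 to 85.5. The last enzyme of the pathway, Pycr1, was not analysed here, and Pycrl, a related gene whose protein can also make proline, differed by 0.10 ± 0.10 and did not pass (limma, adjusted p = 0.462).

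**Figure D2:**
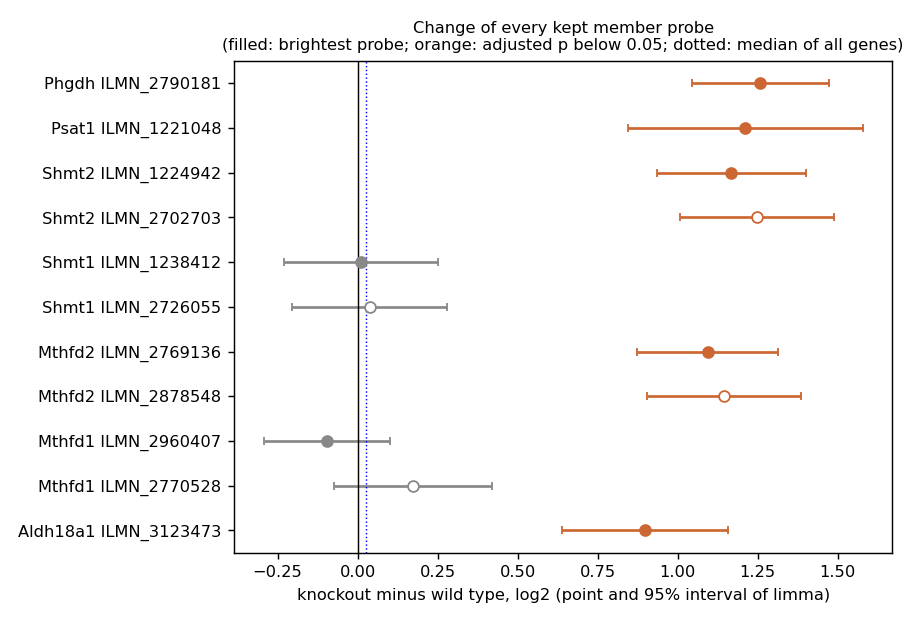
Change of each of the 11 kept probes, as log2 of knockout over wild type (x axis), with its 95% interval from limma; filled points are the brightest probe of each gene, orange marks an adjusted p below 0.05 and the dotted line is the median of all genes at 0.027. The 7 orange probes belong to 5 genes and lie between 0.897 and 1.26, and the 4 probes of Shmt1 and Mthfd1 have intervals that cross 0.

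Whether the mitochondrial and cytosolic partners changed unequally was read from the difference of their log2 values within each array, taken relative to its wild-type mean. For Shmt2 minus Shmt1 this was -0.10, -0.039 and 0.14 on arrays A to C and 1.20, 1.42 and 0.857 on arrays D to F. The knockout arrays were all above the wild-type arrays, by 1.16 on average. For Mthfd2 minus Mthfd1 it was 0.15, -0.0083 and -0.14 in the wild type and 1.28, 1.28 and 1.01 in the knockout, a mean difference of 1.19. One more pair was added after its values were seen: Aldh1l2, which removes one-carbon units from folate in mitochondria, and Aldh1l1, its cytosolic counterpart. Aldh1l2 minus Aldh1l1 was higher by 1.66 in the knockout, again in 3 of 3 arrays. The Aldh1l1 probe lay close to background, at intensities of 103.7 to 129.1, where changes are compressed, so the size of this difference is uncertain. With 3 arrays against 3, an exact two-sided permutation test cannot give a p below 0.1, and each of the 3 pairs gave 0.1, which stayed 0.1 after adjustment over the 3 pairs. The unequal change therefore could not reach the threshold in that test, whatever its size.

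**Figure D3:**
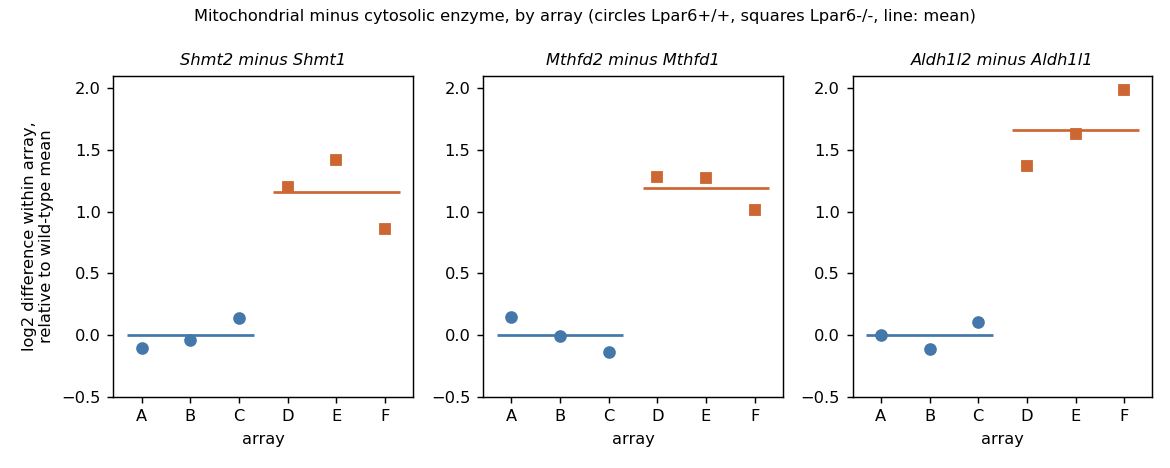
Log2 value of the mitochondrial enzyme minus that of its cytosolic partner on each array, relative to the wild-type mean of the pair (y axis), for arrays A to F (x axis), with circles for Lpar6+/+, squares for Lpar6-/- and lines at the means. The squares of the 3 pairs average 1.16, 1.19 and 1.66 above the circles, with no overlap.

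Around these genes, transcripts of folate handling were also higher. Of 14 kept folate cycle partners, 8 were higher and none lower, with a median of 0.30 on the log2 scale beside 0.027 over all genes, of which 20.6% were called higher. Without array A, C or F, 5 were higher. Aldh1l2 had intensities of 816, 726 and 738 in the wild type and of 1866, 2182 and 2236 in the knockout, with a change of 1.66 ± 0.089 (limma, adjusted p = 1.14e-06). Of its other kept probes, 1 gave 1.62 and another 0.23, which did not pass. Aldh1l1 had a change of 0.0057 ± 0.12 (limma, adjusted p = 0.976). The folate carrier gene Slc19a1 rose by 0.63 ± 0.087, and the folate receptor genes Folr1 and Folr2 by 0.57 ± 0.14 and 0.46 ± 0.15, both from dim probes. Folr1 was detected on only 2 wild-type arrays, so the size of its rise is uncertain, and the call of Folr2 was not made under 8 of 17 alternatives. The second kept probe of Folr2 gave 1.04 and passed (limma, adjusted p = 0.000324). The mitochondrial serine transporter gene Sfxn1, named after its values were seen, rose by 0.28 ± 0.098, a call not made under 6 alternatives. The mitochondrial folate carrier gene Slc25a32 rose by 0.32 ± 0.11, a call not made under 10 of 17 alternatives. In the glycine cleavage system, which also feeds mitochondrial folate, Amt and Gcsh were not detected on any array. Of its 2 kept genes, Dld rose by 0.51 ± 0.12 and Gldc by 0.40 ± 0.13. The call of Gldc was not made under 7 of 17 alternatives, and without array A, B, E or F only Dld of the 2 was called. The second kept probe of Gldc gave 0.43 and did not pass. The brightest probes of Folr1, Folr2, Dld, Gldc and Slc25a32 were dim, and in each the groups overlapped before normalization. When arrays were scaled by their medians instead of their quantiles, 5 folate partners were higher and 1 lower, and neither glycine cleavage gene was called.

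Of 9 kept genes that use or break down serine, 1 was higher and 2 were lower, with a median of 0.016, where 20.6% of all genes were higher and 19.1% lower. The membrane protein gene Serinc2, at 0.26 on the log2 scale, was called higher under 8 of 17 alternatives, among them leaving out array C, which made 2 higher. Gcat, a mitochondrial enzyme of threonine breakdown that yields glycine, rose by 0.82 ± 0.09. Srr, which turns serine into its mirror form D-serine, fell by 0.904 ± 0.12 by its brightest probe, and the membrane protein gene Serinc1 fell by 0.40 ± 0.09. The second kept probe of Serinc1 gave -0.24 and did not pass. Of the other kept probes of Srr, 1 gave -0.77, which passed, and the other 0.30, of opposite sign, which did not. With the mean of its kept probes the change of Srr was -0.46. On the same arrays 9 of 9 kept neuronal markers were lower, their summed normalized intensity going from 6598 to 6720 in the wild type to 1004 to 1053 in the knockout, with Tubb3, Snap25 and Nefl not detected on any array. Srr is known for its role in the brain, and the part of those cells in its fall was not tested. In bulk RNA, fewer cells of a type and less RNA per cell cannot be told apart.

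In the methionine cycle, which takes up one-carbon units, 2 of 6 kept genes were lower and none was higher, beside 19.1% and 20.6% of all genes. Ahcy, which clears the product of methylation reactions, had intensities of 395, 409.5 and 429 in the wild type and of 238, 228 and 244 in the knockout. It fell by 0.798 ± 0.11 on the log2 scale (limma, adjusted p = 0.000519), and its groups did not overlap. The related gene Ahcyl2 fell by 0.34 ± 0.099, a call that was lost when array A, B, E or F was left out, so that 1 gene was lower there. Ahcyl1, at -0.27, was called lower under 8 of 17 alternatives, among them leaving out array D, which made 3 lower. Its second kept probe gave 0.14 and did not pass. Pemt, at 0.32, was called higher under 4 of 17 alternatives, among them leaving out array A or E, which made 1 higher. Mtr, Bhmt and Bhmt2 were not detected on any array.

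Of 11 kept genes of purine synthesis, a main consumer of one-carbon units, 6 were higher and 1 was lower, with a median of 0.28. Of all genes, 20.6% were called higher and 19.1% lower. The largest rise was that of Adssl1 (1.16 ± 0.087), the adenylosuccinate synthase known from muscle, by both of its kept probes. The others were smaller: Pfas 0.45 ± 0.11, Impdh1 0.43 ± 0.099 and Ppat 0.42 ± 0.12. The call of Ppat was lost with median scaling and without array A, B or D. The lower gene was Prps2, at -0.36 ± 0.12, a call not made under 6 of 17 alternatives, among them leaving out array A, B, C, E or F. The second probe of Pfas gave 0.00 and did not pass. With median scaling, only 1 of the 6 rises, that of Adssl1, passed the test.

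Among proline and glutamate partners, 5 of 9 were higher and 1 was lower, beside 20.6% and 19.1% of all genes. Asns, which makes asparagine, had intensities of 2997, 2772 and 2631 in the wild type and of 5015, 6267 and 6146 in the knockout, without overlap. Its change was 1.09 ± 0.091 on the log2 scale (limma, adjusted p = 1.91e-05), with 1.31 and 1.30 from its other kept probes. Gpt2, a mitochondrial alanine transaminase, rose by 0.93 ± 0.11 and its cytosolic relative Gpt by 0.51 ± 0.11. Aldh4a1, which breaks down proline to glutamate in the opposite direction to Aldh18a1, had intensities of 2393, 2154 and 2281 in the wild type and of 1204, 1261 and 1155 in the knockout. It fell by 0.85 ± 0.091 (limma, adjusted p = 8.98e-05). Prodh, the first enzyme of proline breakdown, rose by 0.43 ± 0.14 (limma, adjusted p = 0.0341), a call not made under 9 of 17 alternatives. Its second kept probe gave 0.27 and did not pass. The probes of Prodh and Gpt were dim, and in each the groups overlapped before normalization.

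Genes of collagen chains of types I, III, V and VI, and of enzymes that hydroxylate and fold collagen, were higher in 12 of 14. None of these was lower, and the median was 0.47. Other collagen types were not in this list. Among the cartilage markers, the collagen chain genes Col2a1 (-2.74 ± 0.084) and Col9a1 (-1.22 ± 0.11) were lower. The second kept probe of Col9a1 gave -0.14 and did not pass. Over all genes, 20.6% were called higher and 19.1% lower. Within the list, Col6a2 (1.59 ± 0.11), Col3a1 (1.21 ± 0.10), Col1a2 (1.11 ± 0.15) and the prolyl hydroxylase gene P3h1 (0.98 ± 0.10) had the largest changes. The second kept probe of Col3a1 gave 0.15 and did not pass. By contrast, of 11 kept glycolysis genes, 1 was higher and none lower, with a median of 0.055. Without background correction 2 of them were called higher and 2 lower, the latter Ldha and Pgam1. The exception was the phosphofructokinase gene Pfkp (0.48 ± 0.10), whose second kept probe did not pass.

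Among 12 kept regulators and stress-response genes, 7 were higher and none was lower, except under median scaling, where Sesn2 was called lower. Of all genes, 20.6% were called higher and 19.1% lower. Atf4 itself had intensities of 4788, 4222 and 3841 in the wild type and of 5462, 6106 and 5798 in the knockout, and rose by 0.43 ± 0.086 on the log2 scale (limma, adjusted p = 0.00375). Atf4 is known to be controlled largely at translation, and its protein was not measured. Trib3, an ATF4 target that feeds back on it, had the largest change, with 529, 469 and 394 in the wild type and 1623, 1979 and 1905 in the knockout (2.31 ± 0.11). Chac1 (1.35 ± 0.098), Atf5 (0.92 ± 0.097) and Ddit3 (0.79 ± 0.10) were also higher. Sesn2 went the other way, at -0.22 ± 0.098, and did not pass (limma, adjusted p = 0.1). The second kept probe of Sesn2 gave -0.225 and did not pass either. Myc, another known regulator of serine and folate genes, was near background and differed by 0.20 ± 0.19, which did not pass (limma, adjusted p = 0.453). Over the 9 lists of other pathway genes together, 42 of 88 kept genes were higher, 6 were lower and 40 did not pass. These lists, too, were chosen with earlier results of these data known.

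**Figure D4:**
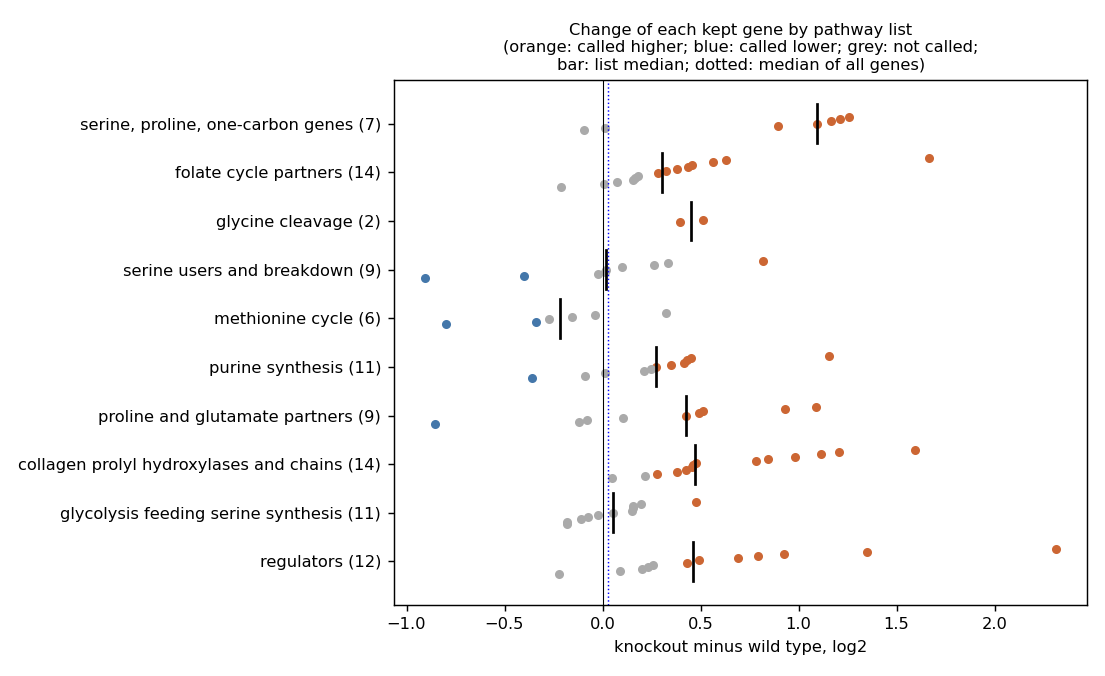
Change of each kept gene, as log2 of knockout over wild type (x axis), by list, with the number of kept genes in brackets; orange points were called higher, blue lower and grey not called, black bars are list medians and the dotted line is the median of all genes. The serine, proline and one-carbon genes have a median of 1.09, the glycolysis genes one of 0.055 and the methionine cycle genes one of -0.22.

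Outside these lists, the 5 genes whose 6 values lay nearest to the median profile of the 5 called genes, each taken relative to its own wild-type mean, were Fosb, C1qtnf5, Jak2, Col16a1 and Dram1. Their root mean square distances over the 6 arrays were 0.048, 0.064, 0.080, 0.081 and 0.089 on the log2 scale. The called genes themselves lay at 0.052 (Mthfd2), 0.063 (Shmt2), 0.14 (Phgdh) and 0.18 (Psat1 and Aldh18a1). Of the 5 called genes, 3 lay farther from the profile than any of these 5 genes outside the lists. Those 5 were picked for being nearest, so this comparison cannot tell whether the called genes vary together.

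The whole-array context was one of broad differences. The targeted gene Lpar6 had intensities of 1223 to 1373 in the wild type and of 76.0 to 77.9, not well above background, in the knockout. Correlations over kept probes were 0.993 to 0.995 within a genotype and 0.966 to 0.968 between genotypes. Of 15 fibroblast markers, 14 had a kept probe and Postn was not detected on any array. In the knockout 10 of the 14 were higher, none lower. Kept cartilage and neuronal markers were also detected on all wild-type arrays, so these counts do not establish which cells were present. Markers of other cells and of division moved on the same arrays as the serine, proline and one-carbon genes. Beside each marker count here stand the shares over all genes, 20.6% called higher and 19.1% lower. Adipocyte markers were higher in 9 of 9 kept, and Fabp4, Retn and Cd36 were not detected on any array. Summed normalized intensities of the adipocyte markers were 3386 to 3967 in the wild type and 10180 to 11870 in the knockout. Lpl was the largest part of the sum in both genotypes. Of the 9 kept adipocyte markers, 4 were kept through the knockout arrays alone, which fixes their direction. Cartilage markers were lower in 7 of 7 (15280 to 15480 against 3650 to 3657), with Col2a1 the largest part of the sum. Proliferation markers were higher in 8 of 9 (7231 to 7758 against 12080 to 12400). The part of all these markers in the rises of Phgdh, Psat1, Shmt2, Mthfd2 and Aldh18a1 was not tested.

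The rises of the 5 genes did not rest on 1 way of processing. Over 17 alternatives, Phgdh ranged from 1.06 to 1.32, Psat1 from 0.9956 to 1.32, Shmt2 from 0.904 to 1.25, Mthfd2 from 1.04 to 1.17 and Aldh18a1 from 0.815 to 0.982, and each passed in all of them. Shmt1 ranged from -0.15 to 0.080 and Mthfd1 from -0.21 to 0.038, and neither passed in any. Median scaling moved the median of all genes from 0.027 to -0.082.

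**Figure D5:**
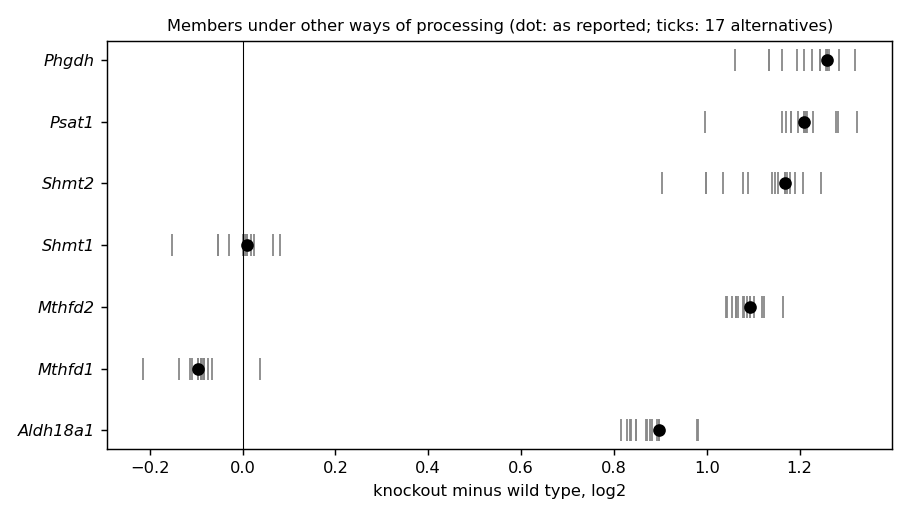
Change of each of the 7 genes, as log2 of knockout over wild type (x axis), as reported (dots) and under 17 alternatives (ticks). The ticks of the 5 called genes stay between 0.815 and 1.32, and those of Shmt1 and Mthfd1 fall on both sides of 0.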

How the data were processed

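RNA was amplified to biotinylated cRNA and hybridised to Illumina bead arrays, per the labels' protocols. The authors deposited an intensity, not normalized, and a detection p-value for every probe and array, per the file headers. A further table deposited by the authors holds log2 values made with limma, per the submitters' processing notes; how background was treated there is not given in the sources. Group means of those log2 values lay within 0.0039 of log2 intensities after quantile normalization alone, so their scale and sign are known; each column's median was 6.54. Intensity columns were assigned by genotype only, since their names hold letters and no replicate numbers.

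Values were corrected by normexp from the detection p-values, quantile-normalized and logged to base 2 after adding 16, an offset that makes the changes of dim probes smaller (neqc of limma 3.58.1, R 4.3.3). Of 45281 probes, 19802 with a detection p below 0.05 on at least 3 of 6 arrays were tested with lmFit and eBayes, with Benjamini-Hochberg adjustment over all of them. Symbols came from GEO's platform annotation (34885 probes with 1 symbol, 18 with several, 10378 with none), updated by Entrez ID in RefSeq (34807 matched). The genes and lists were chosen with earlier results of these data known. Named are all 10 genes of the pathway and up to 4 called genes with the largest change of each list. Atf4, Myc and Ddit3, and the 5 genes nearest in profile, are also named. Aldh1l1, Pycrl, Sfxn1, Slc25a32, Serinc2, Ahcyl1, Pemt, Prps2, Prodh, Sesn2, Ldha, Pgam1, Lpl, Col2a1 and Col9a1 were named after their values were seen. Same-numbered arrays of the authors' log2 values did not deviate together (r of -0.05, 0.02 and -0.05), so no pairing was used. The fit was tested on simulated data. All arrays share 1 slide, so slide effects could not be tested, and the number of arrays limits the precision.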

Additional observations from a re-analysis of the deposited data

How the results depend on the processing

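Alternatives were no background correction, median scaling, cyclic loess, the authors' log2 values, an offset of 50, no detection filter, a stricter filter (detection p below 0.01 on all 6 arrays), averaging the probes of a gene, robust eBayes with a trend, weighted arrays, leaving out each array, and the authors' values with replicate number as a block. In all 17, 5 of the serine, proline and one-carbon genes were higher and 0 lower, where limma called 5 and 0. Other pathway genes called higher numbered 31 to 45 beside 42, and those called lower 4 to 10 beside 6, with 10 under median scaling; the cause was not tested. Over the whole array, median scaling called 1393 genes higher and 2713 lower, against 2273 and 2106. The replicate block on the authors' values gave 5 and 0 of these genes and 45 higher and 8 lower pathway genes, and no array correlated best with its own number. The unequal change of Shmt2 and Shmt1 was 0.897 without background correction in place of 1.16, and that of Aldh1l2 and Aldh1l1 1.17 with the mean of the kept probes, one of which gave 0.23, in place of 1.66; the first cause was not tested. Aldh1l1 was not kept under the stricter detection filter. Signal over background limited Psph, whose probe was not detected on any array, and the sizes for Folr1, Folr2, Myc, Aldh1l1 and the dimmer Shmt2 probe. It also limited the sizes for Dld, Gldc, Slc25a32, Prodh and Gpt.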
